A study of Homo sapiens with 12 samples.

Results

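SHEP cells, a mesenchymal-type human neuroblastoma line carrying a MYCN-ER fusion, were studied in a 2-by-2 layout, and the subject here is whether the effects of the 2 compounds added up. OHT (4-hydroxytamoxifen, 200 nM) activates the fusion, and doxycycline (Dox, 1 µg/ml) switches on a short hairpin RNA against TCEAL1. Untreated cells (Ctrl), cells given one compound (OHT or Dox) and cells given both (OHT_Dox) were each sequenced as 3 poly(A) RNA-seq libraries, and all 12 libraries of the series were used. Every group, Ctrl included, carries both transgenes. The labels give no Dox-treated cells without the hairpin, no OHT-treated cells without the fusion, no treatment times and no statement on separate cultures, so the p-values measure only the spread between these libraries.

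For each gene the departure from additivity was the OHT effect in the presence of Dox minus the OHT effect in its absence, on the log2(CPM + 0.5) scale, where CPM is counts per 1000000 reads. A positive departure means that the OHT_Dox libraries stood above the sum of the separate effects of OHT and Dox, and a negative one that they stood below it. It was computed for 18674 of 28576 genes, those reaching 0.5 CPM in 3 or more libraries. Library totals ran from 44466458 to 57694970 reads. TCEAL1 stood at 9.84 ± 0.80 CPM in Ctrl, 8.99 ± 0.76 in OHT, 2.63 ± 0.10 in Dox and 2.27 ± 0.47 in OHT_Dox (mean ± SD, n = 3), with a departure of -0.068 ± 0.185 (SE; limma adjusted p = 0.895). All 11 mesenchymal markers examined were among the tested genes and summed to 4737 to 5020 CPM in Ctrl, 4514 to 4779 in OHT, 4037 to 4236 in Dox and 3971 to 4171 in OHT_Dox. The epithelial markers summed to 1321 to 1448, 1191 to 1249, 920 to 941 and 831 to 954 CPM in the same order, nearly all of it KRT8 and KRT18, while EPCAM reached at most 1.25 and CDH1 0.922 CPM. Both sums were lower with Dox. VIM made up most of the mesenchymal sum (2720 to 3080 CPM in Ctrl), and single members such as YAP1 went the other way (84.5 to 101 in Ctrl, 103 to 112 in Dox). The adrenergic markers summed to 102 to 110 CPM in Ctrl, 117 to 132 in OHT, 107 to 109 in Dox and 134 to 142 in OHT_Dox, higher with OHT. HAND2 and GATA2 made up most of this sum. ISL1 was lower in OHT_Dox (8.93 to 10.7 CPM) than in Dox (11.2 to 12.4), and GATA3 overlapped between these groups. The part of these markers in the results was not tested. Of 11 adrenergic markers listed, 4 were among the tested genes and 6, such as the regulator PHOX2A, reached 0.5 CPM in no library. The 3 haematopoietic markers in the table summed to at most 0.45 CPM. In bulk RNA, fewer cells of a type and less RNA per cell cannot be told apart.

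MYCN is a transcription factor of the MYC family that pairs with MAX at E-box sequences and is known for raising ribosome production, nucleotide synthesis and metabolism in neuroblastoma. TCEAL1 belongs to a family related to the elongation factor TFIIS, which acts on RNA polymerase II held at a pause, and the series title places it in a complex with the deubiquitinases USP11 and USP7. The layout asks how the MYCN-ER response differs when TCEAL1 is depleted, gene by gene and class by class.

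No single gene passed the limma test for a departure from additivity. Limma called 0 of 18674 genes at an adjusted p below 0.05 (0%), with a lowest adjusted p of 0.221 shared by 591 genes. At an unadjusted p below 0.05, limma gave 956 genes above additivity (5.12% of those tested) and 1923 below it (10.3%). EdgeR's quasi-likelihood test on the recovered reads called 0 genes and gave 2710 at an unadjusted p below 0.05. DESeq2 called 1 gene, DAXX, and gave 2761 at an unadjusted p below 0.05. Others came close in DESeq2, with an adjusted p of 0.0589 for WDR74, RPLP2, RB1 and TSC22D3. The median departure over all genes was -0.035 with a median SE of 0.13, and 14 genes departed by more than 2-fold. The lean towards negative values depended on the scaling. Over the analyses that leave out 1 library, the count at an unadjusted p below 0.05 ran from 1874 without OHT replicate 1 and 1894 without OHT_Dox replicate 3 to 4192 without Ctrl replicate 1. With TMM factors in limma the same unadjusted threshold gave 1328 genes above and 1403 below, and the median departure was 0.00.

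Although limma called no gene with all 12 libraries, several gene classes leaned to one side. Among the gene lists with at least 10 tested members, those above additivity were led by cytosolic ribosomal proteins (median 0.20), inflammatory and NF-kB targets (0.17), nuclear-encoded oxidative phosphorylation genes (0.17), noncoding hosts of small nucleolar RNAs (0.16), RNA polymerase II subunits (0.14) and mitochondrial ribosomal proteins (0.13). Those below were led by cholesterol synthesis and uptake genes (-0.22), ubiquitin-specific proteases (-0.17), nuclear pore and transport genes (-0.17) and YAP and TEAD targets (-0.14, but -0.06 without OHT_Dox replicate 3). Over all tested genes 43.2% lay above 0. In 23 of all 40 lists the median kept 1 sign in all 29 alternative analyses tried. The lists were chosen with earlier results of these data known, so their counts and medians are descriptions and carry no p-value.

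**Figure D1:**
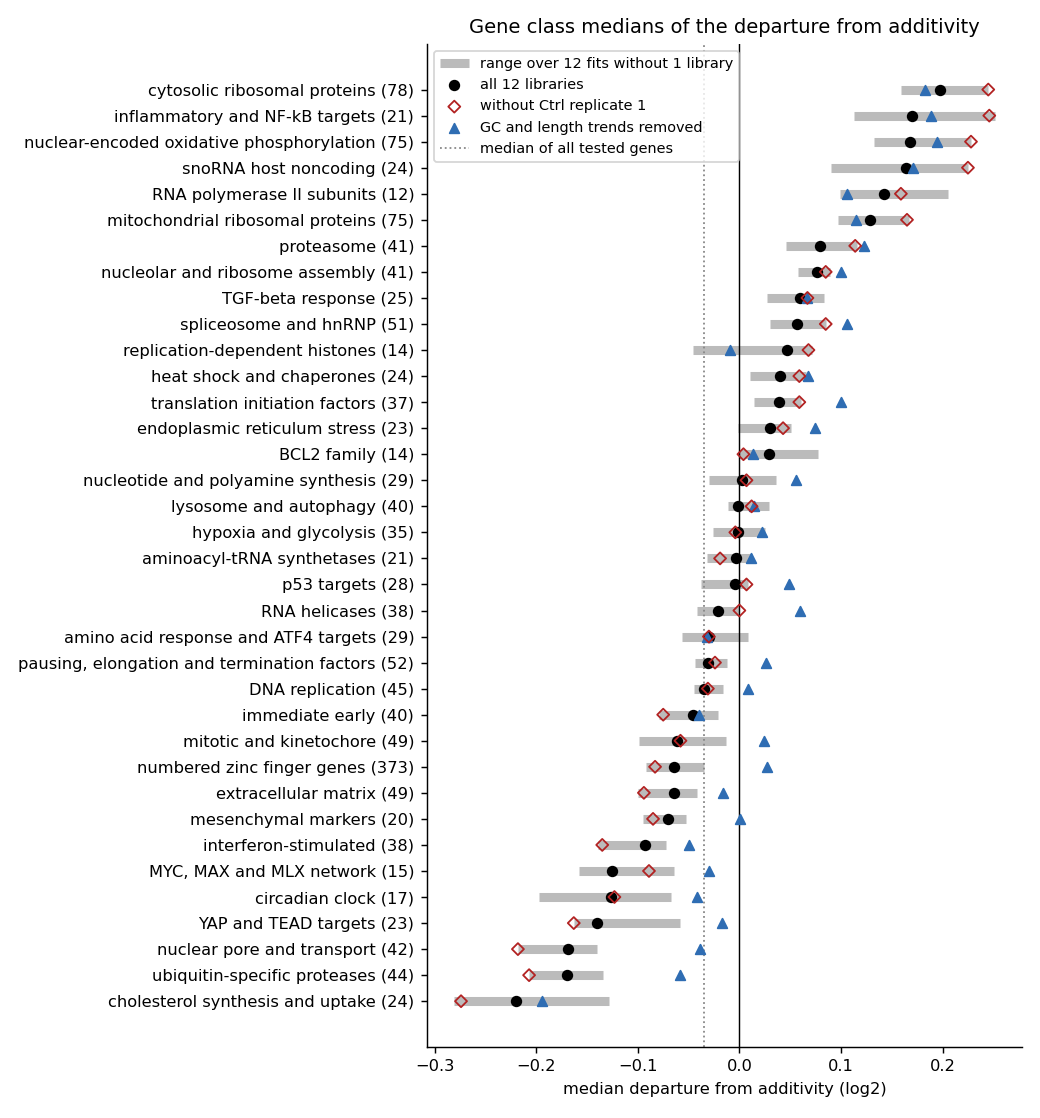
Median departure from additivity (log2, x axis) of each gene list with at least 10 tested members (number in brackets), with all 12 libraries (black), without Ctrl replicate 1 (red diamonds) and with GC and length trends removed from each library (blue triangles). Grey bars span the 12 analyses that leave out 1 library each. Cytosolic ribosomal proteins stay between 0.159 and 0.245 under these leave-outs, while nuclear pore genes move from -0.17 to -0.04 when the trends are removed.

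Cytosolic and mitochondrial ribosomal proteins and oxidative phosphorylation genes shared a pattern of class medians. Each compound alone went with lower levels, and the OHT_Dox libraries lay above the sum. The lowering was not seen against Ctrl replicate 1 in every library. For oxidative phosphorylation its median log2 level, relative to each gene's mean, was -0.02, against 0.14 and 0.11 in Ctrl replicates 2 and 3. OHT replicate 2 stood at 0.02 and Dox replicate 1 at 0.00. The pattern was not particular to these classes. Proteasome genes had median effects of -0.10 for OHT alone and -0.07 for Dox alone, with 33 of 41 departures above 0. For noncoding hosts of small nucleolar RNAs these effects were -0.15 and -0.04, and for RNA polymerase II subunits -0.08 and -0.06. For spliceosome and hnRNP genes they were -0.03 and -0.04, with 35 of 51 above 0. Aminoacyl-tRNA synthetases did not share the pattern (median departure -0.003, 9 of 21 above 0). Of the 78 cytosolic ribosomal protein genes tested, which encode the subunits of the translating ribosome, 76 lay above 0, 43 of them at an unadjusted p below 0.05 against 0 in the other direction. The median OHT effect of the class was -0.14 without Dox and 0.04 with Dox, and its median Dox effect was -0.16 without OHT and 0.03 with OHT. These simple effects share the Ctrl and double-treated libraries and are given side by side. RPLP2, an acidic stalk protein, stood at 423, 492 and 465 CPM in Ctrl, 388, 412 and 404 in OHT, 395, 388 and 392 in Dox and 438, 413 and 431 in OHT_Dox. All Ctrl libraries lay above all OHT and Dox libraries, and the OHT_Dox libraries lay above the other treated groups but overlapped Ctrl. Its departure was 0.32 ± 0.08 (SE; limma adjusted p = 0.221), with a 95% interval of 0.16 to 0.48. RPL37A departed by 0.305 ± 0.083, RPS29 by 0.285 ± 0.080 and RPL32 by 0.298 ± 0.086. After removal of GC and length trends the departure of RPS29 was 0.455. Ribosomal protein genes have many near-identical processed pseudogenes, so the split of their reads is uncertain.

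Among 75 nuclear genes of oxidative phosphorylation, the mitochondrial chain that makes ATP, 71 lay above 0, with 32 at an unadjusted p below 0.05 above and 0 below. ATP5ME, a subunit of ATP synthase, stood at 37.2, 44.2 and 38.9 CPM in Ctrl, 30.5, 33.9 and 30.4 in OHT, 35.9, 33.0 and 29.6 in Dox and 40.4, 34.7 and 33.5 in OHT_Dox. Its OHT libraries were lower than every Ctrl library, while Dox and OHT_Dox overlapped. Annotated exons of other genes cover 61.6% of ATP5ME and 44.9% of NDUFB11, so their reads are uncertain. The departure of ATP5ME was 0.475 ± 0.124, that of the complex I subunit NDUFB11 0.33 ± 0.09 and that of the cytochrome oxidase subunit COX5B 0.35 ± 0.11 (adjusted p = 0.221 each). Of 75 mitochondrial ribosomal protein genes, 59 lay above 0. MRPL2 stood at 43.9, 49.7 and 51.1 CPM in Ctrl, 42.1, 45.2 and 45.3 in OHT, 39.8, 37.2 and 38.3 in Dox and 44.6, 44.3 and 49.6 in OHT_Dox. The 3 Dox libraries were the lowest of the 12, and the other groups overlapped. MRPL2 departed by 0.38 ± 0.10 and MRPL12 by 0.42 ± 0.12. Exons of other genes cover 68.2% of MRPL12, so its reads are uncertain as well.

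Host genes of small nucleolar RNAs, whose introns carry guides for ribosomal RNA modification, gave 22 of 24 members above 0. At an unadjusted p below 0.05, 5 lay above and 2 below. SNHG25 departed most of the 4 hosts named here. SNHG25 stood at 9.11, 11.5 and 11.1 CPM in Ctrl, 5.10, 5.25 and 6.01 in OHT, 7.57, 8.80 and 9.18 in Dox and 10.9, 6.72 and 7.60 in OHT_Dox. OHT alone lowered it by -0.89 ± 0.14 (adjusted p = 1.35e-04) with no overlap of the groups, whereas OHT on top of Dox gave -0.04 ± 0.14 (adjusted p = 0.865). The departure of 0.85 ± 0.20 did not pass the test (adjusted p = 0.221), and OHT_Dox replicate 1 stood well above the other double-treated libraries. SNHG5 and SNHG19 departed by 0.245 ± 0.093 and 0.32 ± 0.14, and SNHG30 by -0.53 ± 0.16.

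Nucleolar and ribosome assembly genes, typical MYC-family targets, had a median OHT effect of 0.19 without Dox and 0.28 with Dox, and 29 of 41 lay above additivity. WDR74, which takes part in assembly of the large ribosomal subunit, stood at 65.1, 73.3 and 67.6 CPM in Ctrl, 82.1, 87.6 and 88.7 in OHT, 56.0, 56.6 and 57.8 in Dox and 93.0, 88.3 and 100 in OHT_Dox. The 3 Dox libraries were its lowest and both OHT groups its highest. OHT raised it by 0.33 ± 0.06 without Dox (adjusted p = 7.10e-04) and by 0.72 ± 0.06 with Dox (adjusted p = 8.25e-08). The difference of these changes was 0.39 ± 0.09 (adjusted p = 0.221). Part of its exons (16.7%) overlap another gene, and the strand setting of the counting is not stated. FBL, the methyltransferase of box C/D particles, departed by 0.26 ± 0.09, and POLR1B, a subunit of RNA polymerase I, by -0.21 ± 0.08, which became -0.10 after removal of GC and length trends.

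In the inflammatory and NF-kB list, 16 of 21 members lay above 0, with 3 at an unadjusted p below 0.05 and 0 in the other direction. These 3 were NFKBIE (0.40 ± 0.13), RELB (0.31 ± 0.11) and NFKBIA (0.31 ± 0.12), of which NFKBIE and NFKBIA encode inhibitors of NF-kB and RELB one of its subunits. After removal of GC and length trends RELB departed by 0.19. NFKBIE stood at 19.3, 25.4 and 21.1 CPM in Ctrl, 14.1, 14.9 and 15.6 in OHT, 18.5, 20.2 and 19.6 in Dox and 16.3, 18.4 and 18.3 in OHT_Dox. OHT lowered it by -0.54 ± 0.09 without Dox (adjusted p = 3.13e-04), with no overlap between the groups, and gave -0.14 ± 0.09 with Dox (adjusted p = 0.312).

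The lists of RNA polymerase II subunits and of its pausing machinery differed in their lean. They also differ in composition, with median lengths of 1930 and 3614 bases and GC contents of 56.0% and 47.5%. Kind of gene and composition cannot be told apart here. Of 12 polymerase subunits 10 lay above 0, and at an unadjusted p below 0.05 there were 5 above and 1 below. By p the first were POLR2F (0.32 ± 0.09), POLR2L (0.32 ± 0.10) and POLR2G (0.305 ± 0.105), followed by POLR2I (0.35 ± 0.13). Pausing, elongation and termination factors showed no common side, with 22 of 52 above 0 and a median of -0.03. After removal of GC and length trends, 34 of 52 lay above 0 with a median of 0.03, and the polymerase median was 0.11. AFF4, the scaffold of the super elongation complex, stood at 112, 88.2 and 77.2 CPM in Ctrl, 104, 84.7 and 92.9 in OHT, 127, 126 and 117 in Dox and 92.8, 95.1 and 77.6 in OHT_Dox. All 3 Dox libraries stood above the other 9, and Ctrl spanned a wide range with replicate 1 at its top. Dox raised AFF4 by 0.427 ± 0.105 without OHT (adjusted p = 0.0208) and gave -0.085 ± 0.105 with OHT (adjusted p = 0.786), a departure of -0.51 ± 0.15 (adjusted p = 0.221). Cyclin T1 (CCNT1), partner of the pause-release kinase, departed by -0.36 ± 0.11 and the elongin subunit ELOB by 0.326 ± 0.105. After removal of GC and length trends these departures were -0.30 for AFF4, -0.17 for CCNT1 and 0.23 for ELOB. USP11 departed by 0.15 ± 0.08 (adjusted p = 0.400), USP7 by -0.09 ± 0.09 (0.661) and TCEA1, which encodes TFIIS, by -0.11 ± 0.08 (0.542).

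Cholesterol synthesis and uptake genes formed the class farthest below additivity, with 20 of 24 below 0, 10 of them at an unadjusted p below 0.05 and 1 above. Their median OHT effect was 0.10 without Dox and -0.08 with Dox, and their median Dox effect -0.135 without OHT and -0.32 with OHT. INSIG1, which holds the sterol sensor in the endoplasmic reticulum, stood at 87.0, 42.5 and 68.2 CPM in Ctrl, 151, 107 and 81.5 in OHT, 47.3, 37.5 and 52.6 in Dox and 41.8, 38.6 and 41.9 in OHT_Dox. Replicates of Ctrl and of OHT lay far apart, while the OHT_Dox libraries lay close together and within the Dox range. OHT raised INSIG1 by 0.79 ± 0.20 without Dox (adjusted p = 0.00736) and gave -0.15 ± 0.20 with Dox (adjusted p = 0.630). The departure was -0.945 ± 0.283 (adjusted p = 0.221).

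STARD4, a sterol carrier, stood at 73.7, 48.6 and 63.1 CPM in Ctrl, 56.7, 49.0 and 48.2 in OHT, 68.1, 62.7 and 68.7 in Dox and 37.5, 38.9 and 34.9 in OHT_Dox. Its double-treated libraries were the 3 lowest of the 12. OHT lowered it by -0.835 ± 0.105 with Dox (adjusted p = 8.24e-06) and gave -0.249 ± 0.105 without Dox (adjusted p = 0.101), a departure of -0.59 ± 0.15. The methylsterol oxidase MSMO1 departed by -0.49 ± 0.16.

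The promoters of INSIG1 and RPLP2 are shown because these genes stand for the classes farthest below and above additivity. Each run is the 250 bases before the annotated start (RefSeq, GRCh38.p14, plus strand, chr7:155297628-155297877 and chr11:809717-809966), with the E-box CACGTG, the preferred MYC-family site, in capitals.
INSIG1: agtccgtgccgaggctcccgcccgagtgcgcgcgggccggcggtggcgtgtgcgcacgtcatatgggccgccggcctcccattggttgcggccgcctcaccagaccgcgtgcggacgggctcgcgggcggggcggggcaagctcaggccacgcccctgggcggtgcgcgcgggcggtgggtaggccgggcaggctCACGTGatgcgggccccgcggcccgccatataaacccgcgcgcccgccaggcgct
RPLP2: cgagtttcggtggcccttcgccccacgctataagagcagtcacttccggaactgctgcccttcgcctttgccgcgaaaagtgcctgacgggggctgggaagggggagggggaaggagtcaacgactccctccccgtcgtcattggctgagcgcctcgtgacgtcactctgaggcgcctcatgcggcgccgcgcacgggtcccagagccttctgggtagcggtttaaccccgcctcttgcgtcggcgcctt
INSIG1 held 1 match, whose last base lies 50 bases before the start, and RPLP2 held 0. CACGTG is its own reverse complement, so both strands were searched at once. Of 18674 tested genes, 11960 were matched to a promoter, and 982 of these (8.2%) held it. The share was 2 of 62 (3.2%) for cytosolic ribosomal proteins, 6 of 61 (9.8%) for oxidative phosphorylation, 2 of 18 (11.1%) for cholesterol genes and 6 of 34 (17.6%) for nucleolar genes. A match describes the letters of this window and is not evidence of binding.

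**Figure D2:**
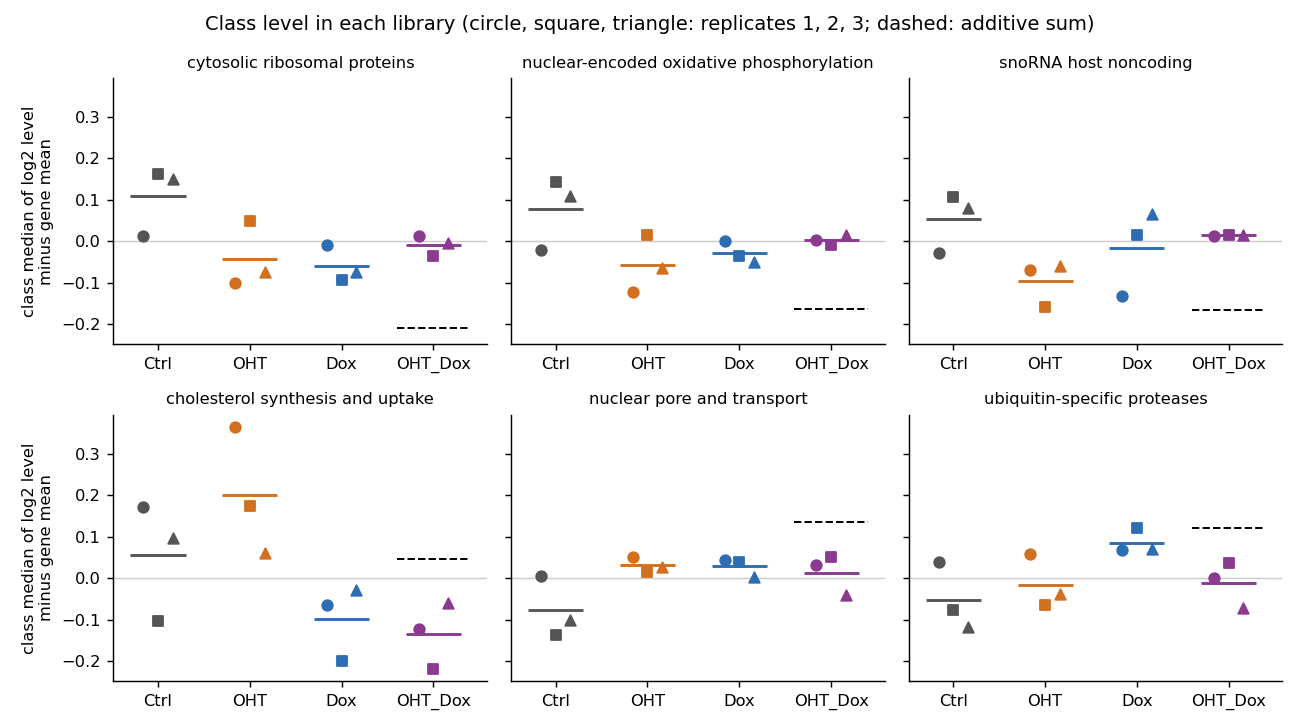
Level of 6 gene lists in each library, as the median over members of the log2 level minus the gene's mean over all 12 libraries (y axis), by group (x axis). Symbols are libraries, coloured lines group means and dashed lines the additive sum of the OHT and Dox means for OHT_Dox. For cytosolic ribosomal proteins Ctrl replicate 1 stands at 0.01, below the other Ctrl libraries at 0.16 and 0.15.

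Ubiquitin-specific proteases and nuclear pore genes leaned below additivity, with 37 of 44 and 35 of 42 members below 0. Of the proteases 16 lay below and 0 above at an unadjusted p below 0.05, and of the pore genes 20 and 0. NUP58, a component of the central channel, stood at 66.7, 56.2 and 58.3 CPM in Ctrl, 60.7, 57.9 and 58.7 in OHT, 78.2, 76.4 and 76.1 in Dox and 59.6, 61.4 and 56.7 in OHT_Dox. The 3 Dox libraries stood above the other 9, which overlapped. Dox raised it by 0.35 ± 0.06 without OHT (adjusted p = 0.00414) and gave 0.00 ± 0.06 with OHT (adjusted p = 0.990), a departure of -0.35 ± 0.09. XPO1, the main exporter of proteins from the nucleus, departed by -0.264 ± 0.085, USP53 by -0.47 ± 0.12 and USP14, a deubiquitinase of the proteasome, by -0.22 ± 0.07. After removal of GC and length trends, described further on, the departure was -0.14 for NUP58, -0.060 for XPO1, -0.257 for USP53 and -0.055 for USP14.

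Of the single genes outside these classes, DAXX, a histone chaperone, had the smallest p. DAXX stood at 26.7, 29.5 and 29.7 CPM in Ctrl, 21.1, 22.5 and 22.6 in OHT, 19.8, 22.9 and 19.3 in Dox and 27.1, 22.8 and 29.5 in OHT_Dox. Ctrl stood clear of both single treatments, and 2 of the 3 double-treated libraries were back in its range. OHT lowered DAXX by -0.37 ± 0.09 without Dox (adjusted p = 0.00660) and raised it by 0.35 ± 0.09 with Dox (adjusted p = 0.00797). The departure was 0.715 ± 0.129, with adjusted p = 0.221 in limma, 0.209 in edgeR and 5.34e-04 in DESeq2. Other genes with small p above additivity were the stress-response factor ATF5 (0.46 ± 0.12), the ribokinase RBKS (0.58 ± 0.15) and the pro-apoptotic BAD (0.37 ± 0.10, or 0.25 after removal of GC and length trends).

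Below additivity, the smallest p belonged to PIGN, an enzyme of membrane anchor synthesis, with -0.47 ± 0.10. After removal of GC and length trends it was -0.26 for PIGN and -0.28 for RB1. RB1, the retinoblastoma tumour suppressor, stood at 51.6, 44.5 and 44.2 CPM in Ctrl, 50.3, 47.3 and 46.7 in OHT, 60.4, 55.6 and 54.7 in Dox and 44.5, 44.6 and 39.3 in OHT_Dox. Its Dox libraries were the highest of the 12, and the other groups lay close together. Dox raised RB1 by 0.28 ± 0.07 without OHT (adjusted p = 0.0253) and OHT lowered it by -0.41 ± 0.07 with Dox (adjusted p = 3.43e-04), a departure of -0.45 ± 0.10. TSC22D3, a glucocorticoid-responsive leucine zipper gene, stood at 6.80, 5.46 and 6.55 CPM in Ctrl, 31.5, 23.8 and 20.5 in OHT, 6.88, 5.94 and 6.96 in Dox and 14.9, 15.2 and 15.7 in OHT_Dox. OHT raised it in both backgrounds with no overlap, by 1.91 ± 0.13 without Dox (adjusted p = 2.08e-09) and 1.155 ± 0.126 with Dox (adjusted p = 1.52e-06). The departure was -0.76 ± 0.18 (adjusted p = 0.221).

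MYCN itself, for which fusion and endogenous transcripts were not separated, stood lower in the 3 OHT_Dox libraries (376 to 470 CPM) than in every OHT library (471 to 644) and Dox library (513 to 564), while Ctrl (436 to 572) overlapped all groups. OHT lowered it by -0.345 ± 0.105 with Dox (adjusted p = 0.0191) and gave 0.107 ± 0.105 without Dox (adjusted p = 0.518). Of the genes with the largest averaged OHT effects, 5 in each direction were examined, and their departures ran from -0.37 ± 0.21 for HAS2, a hyaluronan synthase, to 0.45 ± 0.23 for SH2B2, with adjusted p from 0.352 for SH2B2 to 0.928 for GPR157. SH2B2, a signalling adaptor, went up by 2.56 ± 0.16 without Dox and 3.01 ± 0.16 with Dox, and the nuclear receptor NR1D1 by 2.55 ± 0.17 and 2.36 ± 0.17. MIR30A, the gene with the largest Dox effect, gave 5.605 without OHT and 5.62 with OHT. Its mean was 0.118 CPM in Ctrl and 0.106 in OHT, below the pseudocount, and 29.5 in Dox and 29.4 in OHT_Dox. The size of its change is therefore set largely by the pseudocount. Whether its reads come from the endogenous gene was not tested.

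**Figure D3:**
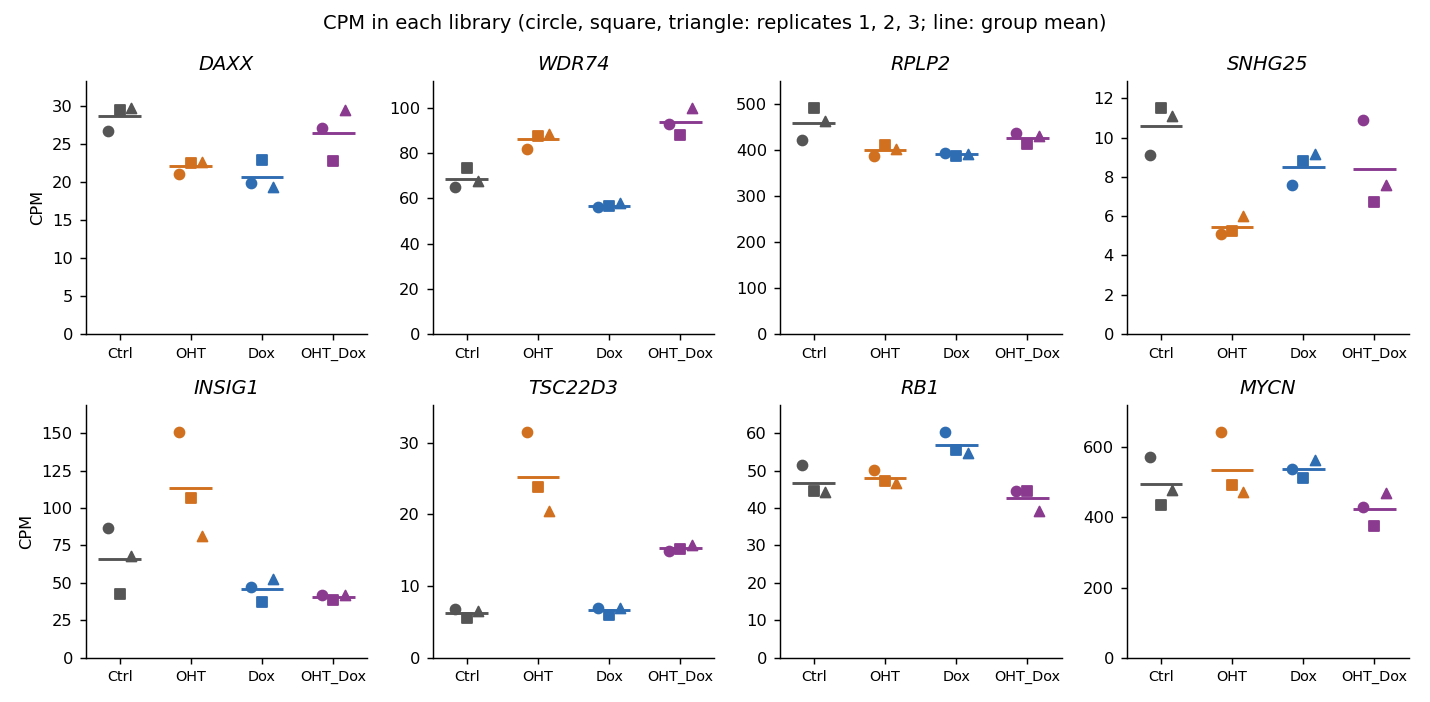
CPM (y axis, from 0) in each library of 8 genes by group (x axis); symbols are replicates and lines group means. DAXX, WDR74, RPLP2 and SNHG25 lay above additivity and INSIG1, TSC22D3, RB1 and MYCN below it, with limma adjusted p = 0.221 for each. INSIG1 ranges from 81.5 to 151 CPM within OHT.

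The number of called genes depended on Ctrl replicate 1. Without it limma called 1041 genes, 272 above additivity (1.46%) and 769 below (4.12%), while leaving out any one of the other 11 libraries gave 0 calls. Without OHT_Dox replicate 2 the count of 0 was a near miss, with a lowest adjusted p of 0.0502 and 3532 genes at an unadjusted p below 0.05. With all 12 libraries kept, limma with array quality weights called 1794 genes. Among the 272 were 29 cytosolic ribosomal protein, 18 oxidative phosphorylation and 11 mitochondrial ribosomal protein genes. Among the 769 were 8 cholesterol genes, 8 ubiquitin-specific proteases and 9 nuclear pore genes. DAXX (0.76), RPLP2 (0.38), SNHG25 (0.94), INSIG1 (-1.17), TSC22D3 (-0.815) and RB1 (-0.52) each had an adjusted p of 0.0252 there, and MYCN (-0.56) one of 0.0298. These calls were themselves sensitive to single libraries. When a further library was left out, the count was 0 without Ctrl replicate 2, Dox replicate 2, OHT replicate 1 or OHT_Dox replicate 1, and 1 without OHT_Dox replicate 3. It was 458 without Dox replicate 1, 567 without OHT replicate 3, 629 without Ctrl replicate 3, 716 without Dox replicate 3, 1605 without OHT replicate 2 and 1831 without OHT_Dox replicate 2.

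**Figure D4:**
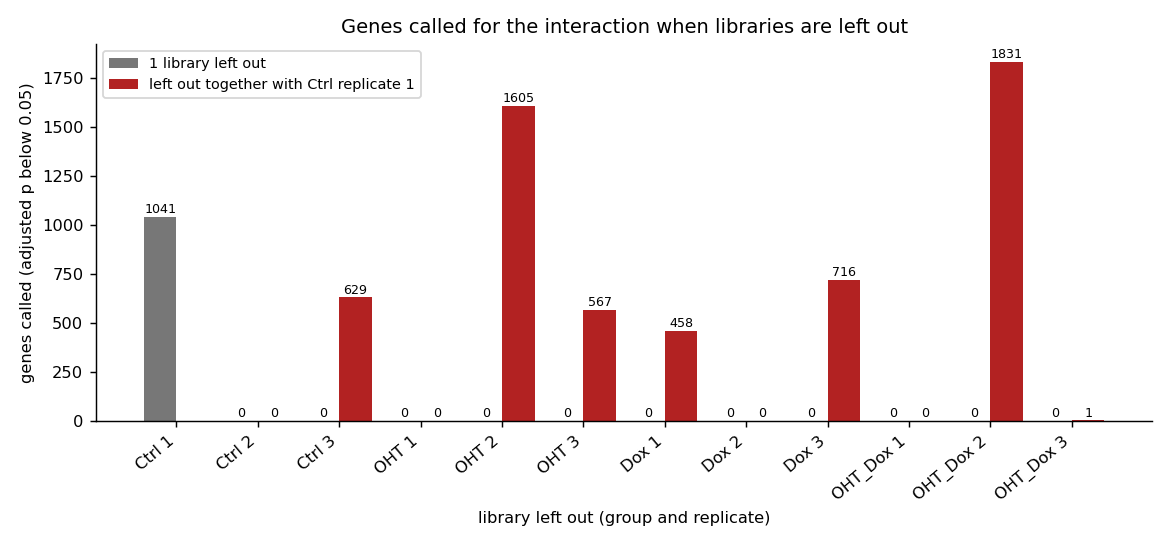
Genes called for the departure from additivity (limma adjusted p below 0.05, y axis) when 1 library is left out (grey) or when it is left out together with Ctrl replicate 1 (red). Leaving out Ctrl replicate 1 alone gave 1041 genes, and the second leave-outs ran from 0 to 1831.

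Class medians also moved with Ctrl replicate 1, but the classes given here kept their side. Without it the median moved from 0.197 to 0.245 for cytosolic ribosomal proteins, from 0.17 to 0.23 for oxidative phosphorylation, from 0.164 to 0.225 for small nucleolar RNA hosts, from -0.22 to -0.27 for cholesterol genes and from -0.17 to -0.22 for nuclear pore genes. Except for cholesterol genes, the medians without Ctrl replicate 1 were the farthest from 0 among the 12 analyses without 1 library. For cholesterol genes the farthest was -0.28, without OHT replicate 3. Each class kept its side in all 12 analyses. The lowest of these medians was 0.16 for cytosolic ribosomal proteins (without Ctrl replicate 2), 0.13 for oxidative phosphorylation (without Ctrl replicate 2) and 0.09 for the host genes (without Dox replicate 1). For cholesterol genes the weakest was -0.13, without Ctrl replicate 2. The spread between replicates of the per-library class level (SD within groups) was 0.065 for cytosolic ribosomal proteins, 0.056 for oxidative phosphorylation, 0.090 for the host genes and 0.116 for cholesterol genes. The cholesterol level ran from 0.36 in OHT replicate 1 to 0.06 in OHT replicate 3, so that class rests on groups with wide replicate ranges.

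Across 13456 protein-coding genes the departure followed transcript composition. It correlated with the GC content of the longest annotated transcript (Spearman rho 0.474), with its length (-0.449) and with the genomic span of the gene (-0.44), as descriptions across genes that share the same 12 libraries. Among the 1346 genes with the lowest GC content (29.6% to 38.4%) the median departure was -0.18 and 205 of 1346 lay above 0. Among the 1346 with the highest (61.6% to 74.7%) it was 0.12, with 1019 of 1346 above 0. By length, the median went from 0.11 for transcripts of 177 to 1567 bases to -0.20 for those of 7693 bases or more. Mean level mattered less, since all 10 bins by mean CPM had a median between -0.06 and 0.02.

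Single libraries carried trends of the same kind relative to their own group means. The departure of a library from its group mean correlated with GC content at -0.606 in OHT_Dox replicate 2 and 0.619 in OHT_Dox replicate 3, and with length at 0.447 in Ctrl replicate 1. Other libraries lay between -0.254 and 0.383 for GC content and between -0.298 and 0.314 for length. By replicate number, the GC correlation was positive in all 4 replicate 3 libraries (0.16 to 0.619) and negative in all replicate 1 libraries (-0.254 to -0.018) and replicate 2 libraries (-0.606 to -0.067). Leaving out OHT_Dox replicate 3 lowered the rho of the departure with GC content to 0.326, and leaving out OHT_Dox replicate 2 raised it to 0.556. With both Dox replicate 1 and OHT_Dox replicate 3 left out the rho was 0.244 for GC content and -0.404 for length. Limma then gave 1702 genes (9.1%) at an unadjusted p below 0.05 and a lowest adjusted p of 0.547. Without Ctrl replicate 1 the rho was 0.451 for GC content and -0.481 for length. The share of these trends in any gene's departure was not tested, and a composition trend of the libraries and a response of the cells that follows composition cannot be told apart within the 12 libraries.

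**Figure D5:**
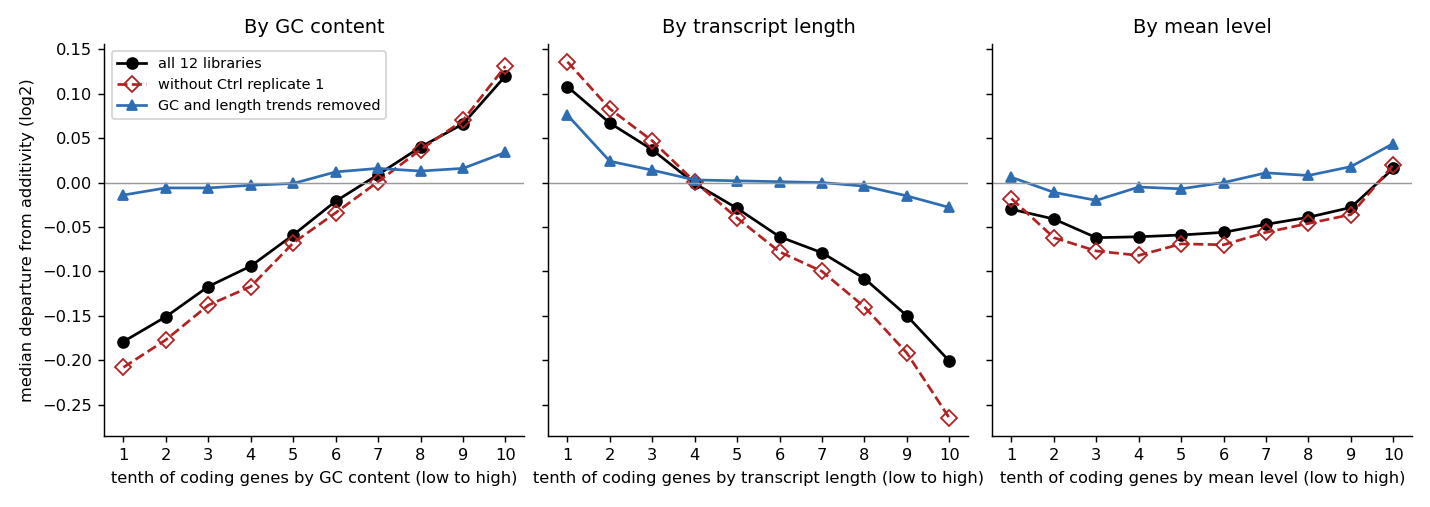
Median departure from additivity (log2, y axis) in 10 equal bins of protein-coding genes ordered by GC content, transcript length or mean CPM (x axes), with all libraries (black), without Ctrl replicate 1 (red) and after removing GC and length trends from each library (blue). The medians run from -0.18 to 0.12 along GC content and lie between -0.01 and 0.03 after the removal. The removal flattens such trends by construction, whatever their source.

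Removing each library's smooth trend with GC content and length of the longest transcript changed some class medians far more than others. This version was chosen after seeing that the planned one, based on the median over a gene's transcripts, left a rho of -0.359 with length. Both versions fitted each library's levels minus each gene's mean over all 12 libraries. Any response to the compounds that follows composition was therefore removed as well. The longest-transcript version still left trends, with a rho of 0.068 with GC content, -0.108 with length and -0.21 with genomic span, and a median departure of 0.08 for transcripts of 177 to 1567 bases. The median stayed at 0.18 for cytosolic ribosomal proteins (76 of 78 above 0), 0.195 for oxidative phosphorylation (73 of 75), 0.17 for the host genes (22 of 24), 0.19 for NF-kB targets (19 of 21) and -0.19 for cholesterol genes (4 of 24). It shrank to -0.06 for ubiquitin-specific proteases (14 of 44 above 0), -0.04 for nuclear pore genes (13 of 42) and -0.02 for YAP and TEAD targets (10 of 23), against 0.00 over all genes (9444 of 18674). With the planned removal it was -0.106 for the proteases, -0.095 for pore genes and -0.131 for YAP and TEAD targets, so the size of the shrinkage depended on the version. The latter classes have long transcripts, with a median of 5196 bases for the proteases, 6016 for pore genes and 4737 for YAP and TEAD targets, against 3650 for all coding genes. Cytosolic ribosomal proteins have a median of 1842 bases and a GC content of 48.0%, close to the 48.3% of all coding genes. These lengths are of the longest annotated transcript, which need not be the one expressed. Listed at 7062 bases, RPS29 rose from 0.285 to 0.455 with the removal, while RPLP2, at 781 bases, fell from 0.32 to 0.23. The value that the class keeps after the removal therefore rests on these listed lengths. Oxidative phosphorylation genes have a median of 1439 bases, within the range of the shortest transcripts, whose median of 0.08 stands beside the 0.195 of the class.

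Limma still called 0 genes after the removal with all 12 libraries, and 1880 had an unadjusted p below 0.05. Without Ctrl replicate 1 it called 186, of which 117 lay above additivity (0.627%) and 69 below (0.369%). They shared 125 genes with the list called without the removal, 67.2% of the 186 and 125 of the 1041. Among the 117 were 10 cytosolic ribosomal protein, 12 oxidative phosphorylation and 5 mitochondrial ribosomal protein genes, and among the 69 were 3 cholesterol genes, 0 ubiquitin-specific proteases and 0 nuclear pore genes. DAXX (0.72, adjusted p = 0.0210), SNHG25 (0.82, 0.0455), INSIG1 (-1.12, 0.0315), TSC22D3 (-0.86, 0.0315) and MYCN (-0.625, 0.0287) were among the 186. RPLP2 (0.28, 0.102), RB1 (-0.32, 0.0628) and PIGN (-0.24, 0.204) were not.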

How the data were processed

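The deposited values are CPM, which the authors made by scaling gene counts to a total of 1000000 per library, as read from the table's label and its column sums. The tools featureCounts, STAR, Bowtie, Bowtie2, FastQC and DRAGEN are listed per the submitters' processing notes, along with builds mm10 and hg19. Which of them made this table, their versions, the annotation and the strand setting are not given in the sources used here. All values (100%) came out as whole reads within 0.01 reads, and these recovered reads served edgeR 4.0.16 and DESeq2 1.42.0.

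The main analysis was limma 3.58.1 (R 4.3.3) on log2(CPM + 0.5) with 4 group means, empirical Bayes with a mean trend, two-sided tests and Benjamini-Hochberg adjustment over 18674 genes. The pseudocount understates changes of genes at low CPM. The fits were tested on simulated data. The recovery simulation held departures larger than nearly all seen here and no composition trends. It does not show how the fits perform on these libraries. GENCODE 29 gave transcript GC content, length and overlaps, and trends were removed by splines with 5 degrees of freedom. Files and annotation differ in build, so no coordinates of the files are used.

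Replicates of a group differed by more than sampling noise. The members, the 40 lists and the tests were chosen with earlier results of these data known. Named genes were TCEAL1, MYCN, USP11, USP7 and TCEA1, called genes or the 12 with the smallest p in each direction (at least 5 CPM in a group, with a gene symbol), up to 4 per list by p, the 6 with the smallest p in each direction among those called only without Ctrl replicate 1, and the 5 largest averaged responders in each direction. Alternatives covered pseudocount, filter, scaling, tool, weights, replicate block, trend removal and leaving out libraries.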

Additional observations from a re-analysis of the deposited data

How the results depend on the processing

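The count of called genes was 0 with all 12 libraries in limma and stayed at 0 in 24 of 29 alternatives, among them both other pseudocounts, both other filters, TMM scaling, edgeR and both trend removals. It was 1 with DESeq2, 1794 with array quality weights (weights from 0.463 to 5.755, the latter for OHT_Dox replicate 1), 460 with the planned trend removal and Ctrl replicate 1 left out, and 186 with the removal by the longest transcript and that library left out, which was chosen after seeing the data. Leaving out 1 library each gave 0 to 1041 genes, the latter without Ctrl replicate 1. The array weights and the analysis without Ctrl replicate 1 shared 829 genes. With the replicate block the count was 0, with 3456 genes at an unadjusted p below 0.05 and a lowest adjusted p of 0.0811. The labels do not say what a replicate number marks. Correlations of the deviations of same-numbered libraries from their group means ran from -0.174 to 0.33, with 15 of 18 positive and 7 over 0.1. Of 12 libraries, 9 correlated best with one of their own number. The median SE was 0.125 with the block and 0.133 without it. The main analysis did not pair libraries by number only because the labels do not define it. Whether equal numbers mark a pairing was not tested. Of the named genes, TCEAL1 turned from -0.068 to 0.078 without Dox replicate 1 and OHT_Dox replicate 3 and to 0.109 with array weights, and ran from -0.151 to 0.081 when 1 library was left out. USP7 turned from -0.089 to 0.026 with the longest-transcript removal, 0.026 with that and the replicate block, and 0.031 with that and without Ctrl replicate 1. The cause was not tested. Over all alternatives, 941 list medians moved by less than the spread between replicates and 219 by more. Depth was at least 44466458 reads a library.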

Other observations

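Several classes stood close to additivity before removal of GC and length trends. Nucleotide and polyamine synthesis genes, a main MYC-family programme, had a median departure of 0.00 with 15 of 29 above 0, and their median OHT effect was 0.12 without Dox and 0.09 with Dox. DNA replication genes had a median of -0.035 (19 of 45 above 0) and p53 targets one of 0.00 (14 of 28). After the removal the medians were 0.056 for nucleotide and polyamine genes (22 of 29 above 0), 0.008 for DNA replication (25 of 45) and 0.049 for p53 targets (18 of 28). With TMM factors the nucleotide and polyamine median was 0.041. Interferon-stimulated genes leaned below, with 10 of 38 above 0 and a median of -0.09, which became -0.05 after removal of GC and length trends. SAMD9, an antiviral factor of that list, stood at 22, 16 and 18.2 CPM in Ctrl, 17, 14.9 and 15.5 in OHT, 31.2, 28.3 and 29.5 in Dox and 17, 17.8 and 14.1 in OHT_Dox. Its 3 Dox libraries lay above all others, and Dox raised it by 0.66 ± 0.11 without OHT (limma adjusted p = 0.00134) and gave 0.04 ± 0.11 with OHT (adjusted p = 0.914). The departure of SAMD9 was -0.62 ± 0.15 (adjusted p = 0.221), and -0.41 after removal of the trends.

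By annotated gene type, processed pseudogenes lay above additivity in 489 of 826 cases with a median of 0.06, protein-coding genes in 5665 of 13456 with a median of -0.04, and antisense genes in 946 of 2254 with a median of -0.04. Genes raised by Dox on average over both backgrounds (891 genes) had a median departure of -0.10, with a median Dox effect of 0.30 without OHT and 0.18 with OHT. After removal of the trends that median was -0.03. Genes lowered by Dox on average (630 genes) also had a negative median departure, -0.055 (-0.018 without Ctrl replicate 2), with a median Dox effect of -0.27 without OHT and -0.31 with OHT.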
